A study of Mus musculus with 40 samples.

Results

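Lymphoid-primed multipotent progenitors (LMPPs) and all-lymphoid progenitors (ALPs) sorted from the bone marrow of 5 mice lacking Mbd3 were compared within each mouse. The comparison uses 10 of the 40 libraries of the series, chosen by their labels: 5 LMPP and 5 ALP libraries, 1 of each per mouse. All 5 mice carried 2 deleted alleles (Mbd3_Del/Del) on a mixed C57BL6/129Ola background and were 46, 47, 48, 50 and 51 days old. The 5 control mice, used for the same step beside it, carried floxed but undeleted alleles (Mbd3_Flox/Flox) on the same background at 46, 47, 47, 50 and 51 days. Both populations were taken from femurs and tibiae as lineage-negative, Sca-1+ and c-Kit+ cells with high Flt3 and no B220. LMPPs lacked the interleukin 7 receptor (IL-7Ra-), whereas ALPs carried it and lacked Ly6D (IL-7Ra+ Ly6D-). Each library came from a pool of sorted cells, 100 per the sample labels and 150 per the series text. What drove the deletion and when it took place is not stated in the labels. Both populations of a mouse carried it, so the step does not compare deleted with intact cells. For the 5 Mbd3del LMPP libraries the titles read floxed, against genotype and description fields that read deleted. They were treated as deleted.

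LMPPs are multipotent progenitors that have largely given up red cell and platelet fates, keep myeloid and dendritic potential, and begin to transcribe lymphoid genes. At the ALP stage the cells carry the interleukin 7 receptor, whose signal through JAK and STAT5 supports lymphoid precursors, and E proteins, EBF1 and the recombinase genes prepare the B cell programme. MBD3 is a subunit of NuRD, a complex that couples nucleosome remodelling by CHD4 to histone deacetylation and is best known for lowering the activity of promoters and enhancers during changes of cell state.

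Expression is given as CPM, gene counts scaled to a common library total, and per-mouse values always follow the order of mouse10360, mouse10361, mouse10365, mouse10376 and mouse10384. Mbd3 (chromosome 10, 80392539 to 80399550, minus strand of GRCm38), the deleted gene, was at 1.18, 0.533, 0, 0.153 and 0.581 CPM in the LMPPs, 16 counts in all. In the ALPs it was at 0.697, 0, 0, 3.24 and 0.283 CPM, 33 counts in all. The control mice had 40.4 ± 14.5 CPM in LMPPs and 61.7 ± 59.6 CPM in ALPs (mean ± SD, n = 5, as for every level given with ± here). Every Mbd3del library was thus below the control means, and the ALP of mouse10376 held the highest remaining value. Mbd3 did not pass the filter on low counts and was not tested in the step.

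The 10 libraries held between 5167645 and 8025274 gene counts, with 13264 to 15311 genes detected and 2.35% to 6.45% of counts in mitochondrial genes. Over 6 library measures, an exact two-sided sign-flip test over the 5 mice gave a smallest p of 0.1875 between populations (adjusted p = 0.45), where 0.0625 is the smallest this design allows. On the first principal component of 1000 variable genes, which held 34.6% of their variance, the ALP of mouse10376 lay at -11.6 and the other ALPs between -43.1 and -30.8, with all LMPPs between 22.8 and 34.4. The ALP of mouse10384 stood apart on the second component, at 42.8. Xist and 4 Y-linked genes matched the labelled sex in all 5 Mbd3del mice but went against it in control mouse10372 and mouse10381. The numbers of genes called in the control step and in the difference between genotypes were therefore also computed without those 2 mice. Control levels, fold changes and adjusted p-values given here include both.

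Of the 6 genes of the sort, 2 rose, 2 fell and 2 were not called. Flt3, the receptor tyrosine kinase sorted as high in both populations, was at 746, 635, 1086, 481 and 463 CPM in the LMPPs and 553, 615, 406, 1236 and 467 CPM in the ALPs, and the pan-leukocyte gene Ptprc stood at 450 ± 82.2 and 478 ± 112 CPM. Their adjusted p-values were 0.986 and 0.876. Il7r, whose product divided the populations, was at 1.18, 1.87, 0.357, 0.764 and 4.45 CPM in the LMPPs and 561, 245, 330, 325 and 465 CPM in the ALPs, and its difference describes the sort (log2 fold change 8.04 ± 0.48 SE, adjusted p = 7.25e-05). In bulk libraries such as these, fewer cells of a type and less RNA per cell cannot be told apart. Ly6d, whose product was used to keep cells out of the ALP gate, was at 3.53, 1.73, 5.71, 10.7 and 39.9 CPM in the LMPPs and 493, 249, 261, 71.5 and 271 CPM in the ALPs, and at 9902 ± 3585 CPM in the B cell-biased progenitors (BLPs) sorted as Ly6D+ from the same mice. Its RNA rose at the step in every mouse (log2 fold change 5.06 ± 0.82 SE, adjusted p = 0.0185), and the LMPP of mouse10384 held the highest Ly6d and Il7r values among LMPPs. Kit, the stem cell factor receptor, was sorted as positive in both but fell from 478, 468, 469, 448 and 501 CPM to 46.3, 109, 62.8, 209 and 176 CPM (log2 fold change -2.11 ± 0.33 SE, adjusted p = 0.0140), with no overlap between the populations. Ly6a, which encodes Sca-1, fell from 318, 177, 204, 213 and 260 CPM to 113, 43.8, 81.2, 49.8 and 139 CPM (log2 fold change -1.49 ± 0.26 SE, adjusted p = 0.0292). Its adjusted p was 0.0573 in a fit without the mouse as a replicate block. With 1 mouse left out in turn, the threshold was missed by Ly6d without mouse10360, mouse10361 or mouse10365 (adjusted p up to 0.0768), Kit without mouse10360 or mouse10361 (adjusted p up to 0.0810) and Ly6a without mouse10360, mouse10361, mouse10365 or mouse10384 (adjusted p up to 0.163).

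Across the transcriptome, 154 of 11082 genes tested passed an adjusted p of 0.05 (1.39%), 84 of them higher in ALPs (0.758%) and 70 lower (0.632%). All 154 moved in the same direction in 5 of 5 mice. They were picked by a test on these same values. Shared direction, and a lack of overlap between populations where given below, thus describe the called genes and are not further evidence. The matching shares over all genes tested are not given. The test was edgeR's quasi-likelihood F test with the mouse as a block, and 1160 genes had an unadjusted p under 0.05. The median log2 fold change of all genes tested was -0.05, and 46.1% were positive. Without the mouse as a block, 242 genes were called, 142 of them shared, and DESeq2 with the block called 789, of which 40.3% were higher against 54.5% here. The count ranged from 38 without mouse10360 to 232 without mouse10376, whose ALP lay nearest to the LMPPs, and was 42 without mouse10361, 66 without mouse10384 and 103 without mouse10365. No called gene changed sign in any of these fits, and 32 of the 154 were called in all 5 fits without 1 mouse.

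**Figure D1:**
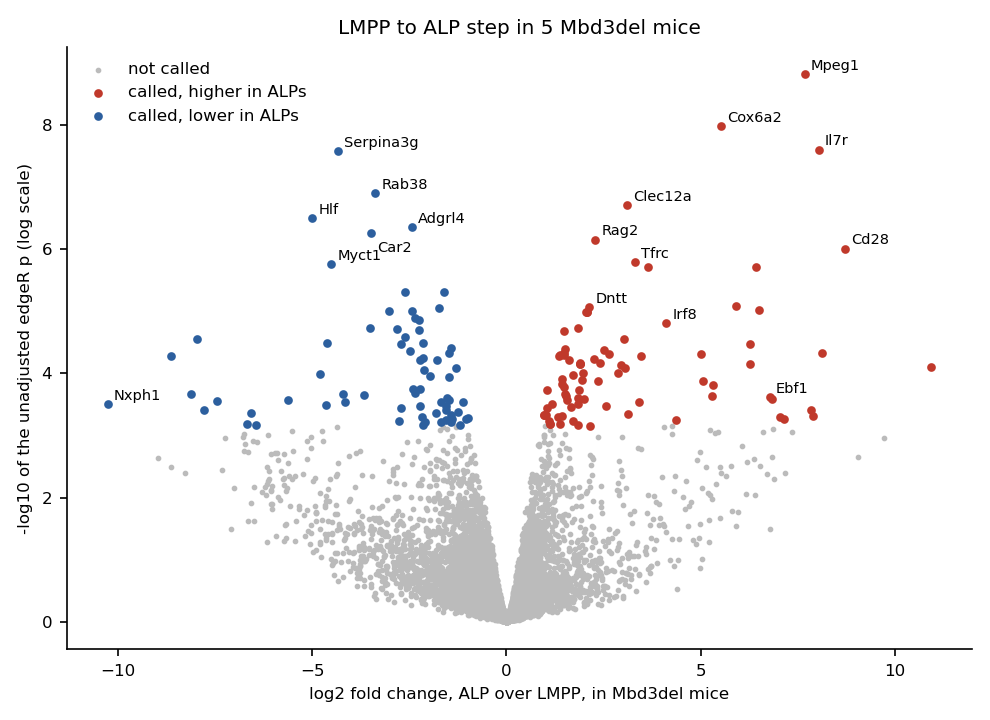
The step from LMPP to ALP in Mbd3del mice: log2 fold change (ALP over LMPP, horizontal axis) against -log10 of the unadjusted p of edgeR (vertical axis), 1 point per gene for 11082 genes, from 5 mice. Red points are the 84 genes called higher in ALPs, blue points the 70 called lower, and grey points did not pass an adjusted p of 0.05. Il7r, Mpeg1 and Cd28 lie at the upper right, and Hlf and Car2 at the upper left.

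Among 13 genes listed for antigen receptor recombination, Rag1, Rag2, Dntt and Xrcc6 rose and none fell. Rag1, a subunit of the recombinase that cuts at recombination signals, was at 0.147, 1.73, 0, 2.60 and 0.581 CPM in the LMPPs and 51.9, 71.2, 36.3, 29.5 and 72.5 CPM in the ALPs. Rag1 reads were near absent from LMPPs and present in every ALP, a ratio of pooled counts per pooled library total of 48.3 (95% interval 34.4 to 70.0), where the interval covers counting error only (log2 fold change 6.26 ± 0.94 SE, adjusted p = 0.0122). Rag2, the other subunit, was already present in LMPPs at 69.0, 54.9, 64.5, 41.3 and 97.3 CPM and reached 352, 237, 338, 192 and 390 CPM in ALPs (log2 fold change 2.29 ± 0.20 SE, adjusted p = 0.000775). Every ALP was above every LMPP for both genes. Dntt, the terminal transferase that adds untemplated bases to the joints, was at 1257, 1319, 2892, 1234 and 1775 CPM in the LMPPs and 6412, 6262, 5847, 8567 and 6496 CPM in the ALPs (log2 fold change 2.14 ± 0.25 SE, adjusted p = 0.00445). Xrcc6, the Ku70 end-binding subunit of DNA repair, went from 210, 217, 318, 230 and 182 CPM to 700, 905, 918, 755 and 1288 CPM (log2 fold change 2.04 ± 0.24 SE, adjusted p = 0.00445). Desi1 overlaps it on the other strand, so its reads in the shared stretch are uncertain. These 4 were the members called of 13 genes listed for recombination, all 13 tested, with a list median of 0.65. Among those not called were Hmgb1 (175 ± 27.6 and 260 ± 36.6 CPM, adjusted p = 0.310), Hmgb2 (57.8 ± 8.26 and 71.1 ± 13.996 CPM, adjusted p = 0.725) and Xrcc5 (74.1 ± 27.5 and 53.2 ± 21.1 CPM, adjusted p = 0.784). The non-coding B230118H07Rik, which spans the Rag locus and overlaps Rag1 and Rag2, moved the other way, from 114 ± 29.1 to 15.7 ± 9.58 CPM (log2 fold change -3.01 ± 0.36 SE, adjusted p = 0.00445). It was singled out after its values were seen. It overlaps Rag1 on the same strand and Rag2 on the opposite one. As strand was not marked, reads in the shared stretches are uncertain for each of these genes. Rag1 missed the threshold without mouse10360, mouse10361 or mouse10384 (adjusted p up to 0.0668), whereas Rag2, Dntt and Xrcc6 were called in all 5 such fits.

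The promoters of these 3 genes are shown because the genes rose together from neighbouring or separate loci. Rag1 (chromosome 2, 101638282 to 101649501, minus strand) and Rag2 (chromosome 2, 101624718 to 101632529, plus strand) lie next to each other in opposite orientation, and Dntt lies on chromosome 19, 41029275 to 41059525, plus strand. Each sequence runs 5′ to 3′ on the gene's strand from 250 bases before to 50 after the start in RefSeq (GRCm38.p6), chr2:101649483-101649782 for Rag1, chr2:101624462-101624761 for Rag2 and chr19:41029025-41029324 for Dntt. Capitals mark matches to 5 motifs searched on both strands: the E-boxes CAGGTG and CAGCTG bound by E proteins, GAGGAAGT of PU.1, AGATAA of GATA factors and GAAA, any 2 bases and GAAA again, of interferon regulatory factors.
Rag1: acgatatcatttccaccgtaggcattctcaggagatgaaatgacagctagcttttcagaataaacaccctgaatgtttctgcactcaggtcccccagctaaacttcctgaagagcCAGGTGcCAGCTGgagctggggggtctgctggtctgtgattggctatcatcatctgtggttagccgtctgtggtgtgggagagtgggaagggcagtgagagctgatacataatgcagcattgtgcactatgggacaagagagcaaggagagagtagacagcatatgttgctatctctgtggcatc
Rag2: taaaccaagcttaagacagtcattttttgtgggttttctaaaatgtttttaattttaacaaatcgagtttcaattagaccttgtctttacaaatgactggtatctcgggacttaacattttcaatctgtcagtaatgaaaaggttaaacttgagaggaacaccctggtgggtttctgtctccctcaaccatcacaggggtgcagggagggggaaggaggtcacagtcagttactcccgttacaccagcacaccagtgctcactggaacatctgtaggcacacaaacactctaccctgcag
Dntt: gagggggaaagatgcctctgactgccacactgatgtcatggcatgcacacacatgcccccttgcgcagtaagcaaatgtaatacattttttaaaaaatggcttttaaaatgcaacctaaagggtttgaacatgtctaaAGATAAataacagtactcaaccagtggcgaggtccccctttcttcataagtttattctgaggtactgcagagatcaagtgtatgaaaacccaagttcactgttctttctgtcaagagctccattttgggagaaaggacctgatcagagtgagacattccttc
The Rag1 window holds both E-boxes, starting at -135 and -128, the Dntt window holds AGATAA at -112, and none of the 5 matched in the Rag2 window. RefSeq promoters matched 63 of the 84 genes called higher, 53 of the 70 called lower and 8575 of the 11082 tested. CAGGTG was present in 27.0% of the higher, 15.1% of the lower and 16.3% of all tested genes' windows, and CAGCTG in 22.2%, 13.2% and 13.9%. AGATAA was present in 4.76%, 17.0% and 6.22%, the interferon regulatory factor motif in 3.17%, 11.3% and 3.27%, and GAGGAAGT in 6.35%, 3.77% and 3.43%. Over all 27025 promoters of the table the shares were 20.03% for CAGGTG, 16.1% for CAGCTG, 11.4% for AGATAA, 3.49% for the interferon regulatory factor motif and 3.28% for GAGGAAGT. These shares describe letters in a window and were not tested.

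Of 20 genes listed for lymphoid priming, 18 were tested, 15 were positive, 6 rose and none fell, with a median log2 fold change of 0.94 beside -0.05 for all genes. Among the 6 were Rag1, Rag2, Dntt, Il7r and Cnn3. Cnn3, an actin-binding calponin, rose from 104, 195, 222, 62.2 and 89.6 CPM to 698, 688, 580, 365 and 255 CPM (log2 fold change 2.08 ± 0.25 SE, adjusted p = 0.00445). Members without a call included Il12a (598 ± 90.9 and 1231 ± 404 CPM, adjusted p = 0.0996) and Satb1 (355 ± 95.05 and 584 ± 73.0 CPM, adjusted p = 0.0768). Cnn3 was called in all 5 fits without 1 mouse.

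Early B cell genes were present in every ALP pool, while Pax5 and Cd22 were at or near 0. Ebf1, the transcription factor that commits cells to the B lineage, was at 0, 0, 5.18, 0.153 and 1.16 CPM in the LMPPs and 30.1, 35.8, 27.2, 62.9 and 85.6 CPM in the ALPs (log2 fold change 6.78 ± 1.19 SE, adjusted p = 0.0283). The 5 LMPP values were at most 5.18 CPM and the lowest ALP was at 27.2 CPM, a ratio of pooled counts per library total of 43.2 (95% interval 31.1 to 61.8). Blnk, the adaptor of the pre-B cell receptor, was at 3.82, 0.400, 11.8, 1.22 and 10.1 CPM in the LMPPs and 287, 260, 194, 139 and 209 CPM in the ALPs (log2 fold change 5.91 ± 0.68 SE, adjusted p = 0.00445). Blk, a Src family kinase of B cells, went from 0.147, 2.53, 0.357, 0.153 and 1.35 to 18.7, 28.4, 19.4, 23.2 and 21.7 CPM (log2 fold change 5.30 ± 0.93 SE, adjusted p = 0.0276). Mzb1, a chaperone partner in immunoglobulin assembly, went from 0, 1.87, 2.32, 2.29 and 1.55 to 80.4, 78.2, 41.5, 27.2 and 66.1 CPM (log2 fold change 5.32 ± 0.88 SE, adjusted p = 0.0206). None of these 4 overlapped between populations. With Ly6d, Rag1, Rag2 and Dntt, 8 of the 26 listed B lineage genes rose and none fell. Of these 26, 16 were tested, 14 were positive and the median was 5.02. However, 9 of the 16 passed the filter through the ALPs alone, which favours genes that are higher there. Summed over all 26, the list held 1838 to 3556 CPM in the LMPPs and 7376 to 9873 CPM in the ALPs. Most of this sum was Dntt (means of 1695 and 6717 CPM). The B commitment gene Pax5 stayed at 0.0387 ± 0.0865 and 0.541 ± 0.550 CPM and Cd22 had no count, and neither was tested. Tested members without a call included Cd24a (256 ± 45.6 and 234 ± 28.1 CPM, adjusted p = 0.974), Cd79b (148 ± 19.2 and 146 ± 51.3 CPM, adjusted p = 0.986) and Cd72 (110 ± 22.7 and 171 ± 39.9 CPM, adjusted p = 0.226). With 1 mouse left out, the threshold was missed by Ebf1 without mouse10360, mouse10361, mouse10376 or mouse10384 (adjusted p up to 0.122), Blk without mouse10360, mouse10361, mouse10365 or mouse10384 (adjusted p up to 0.123) and Mzb1 without mouse10361 or mouse10384 (adjusted p up to 0.112). The list's calls then numbered 4, 3 and 4 without mouse10360, mouse10361 and mouse10384.

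**Figure D2:**
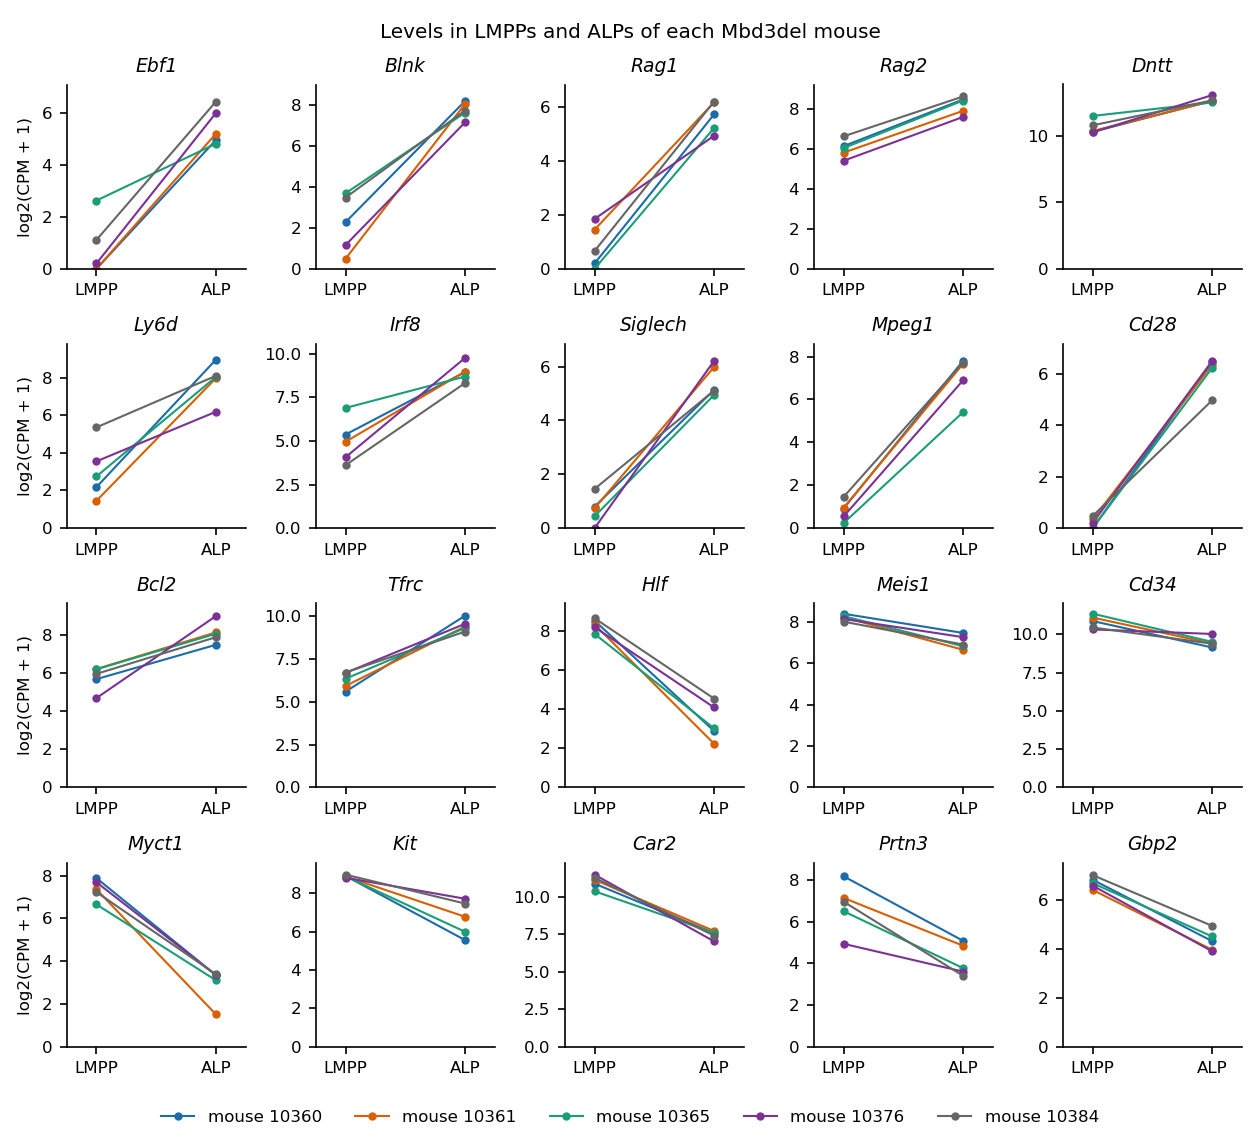
Level of 20 genes in the LMPP and ALP of each of 5 Mbd3del mice, as log2(CPM + 1), with 1 line per mouse. Lines of the lymphoid, dendritic and survival genes such as Ebf1, Rag1, Irf8 and Bcl2 climb in all 5 mice, and those of Hlf, Meis1, Kit, Car2, Prtn3 and Gbp2 descend in all 5.

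Of 15 genes of interleukin 7 receptor signalling, 14 were tested, 6 were positive, the median was -0.13, and Il7r and Bcl2 were the members called. Bcl2, the anti-apoptotic protein that this signal sustains in lymphocytes, was at 49.9, 72.4, 71.6, 24.6 and 60.6 CPM in the LMPPs and 176, 276, 263, 500 and 232 CPM in the ALPs (log2 fold change 2.42 ± 0.36 SE, adjusted p = 0.0122). All ALPs were above all LMPPs, and the ALP of mouse10376 was highest. No call was made for Myc (1090 ± 292 and 718 ± 146 CPM, adjusted p = 0.360), Il2rg (326 ± 98.8 and 242 ± 79.7 CPM, adjusted p = 0.789) and Jak1 (326 ± 78.6 and 232 ± 54.7 CPM, adjusted p = 0.570). In the Bcl2 family, 10 of 13 genes were tested and Bcl2 was the sole call, beside Bid (216 ± 61.3 and 217 ± 82.7 CPM, adjusted p = 0.970) and Mcl1 (155 ± 72.0 and 125 ± 42.6 CPM, adjusted p = 0.916). Bcl2 missed the threshold without mouse10360, mouse10361 or mouse10384 (adjusted p up to 0.0642).

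Among 20 lymphoid transcription factors, 18 were tested, 13 were positive, the median was 0.40, 2 rose and 1 fell. Myb, needed by early lymphoid and myeloid progenitors, was at 425, 447, 259, 251 and 447 CPM in the LMPPs and 693, 775, 533, 657 and 831 CPM in the ALPs (log2 fold change 1.04 ± 0.18 SE, adjusted p = 0.0235). Ets1, an ETS factor of lymphocytes, rose from 50.9 ± 26.8 to 125 ± 52.3 CPM (log2 fold change 1.39 ± 0.28 SE, adjusted p = 0.0485). Ikzf2, the Ikaros relative Helios, fell from 78.3 ± 26.1 to 16.5 ± 15.4 CPM (log2 fold change -2.72 ± 0.50 SE, adjusted p = 0.0346). Ikzf1, which encodes Ikaros, stood at 332 ± 85.4 and 528 ± 160 CPM (adjusted p = 0.363), and Mef2c at 325 ± 49.2 and 510 ± 177 CPM (adjusted p = 0.290). Of 6 genes for E proteins and their Id inhibitors, 4 were tested and none was called, including Tcf4 (331 ± 69.0 and 404 ± 129 CPM, adjusted p = 0.667), Tcf12 (103 ± 45.0 and 107 ± 22.4 CPM, adjusted p = 0.859) and Id2 (33.4 ± 22.8 and 62.8 ± 36.6 CPM, adjusted p = 0.226). Without the mouse as a block, Ets1 and Ikzf2 had adjusted p-values of 0.0958 and 0.125. When 1 mouse was left out, the call was lost for Myb without mouse10360, mouse10361, mouse10365 or mouse10384 (adjusted p up to 0.132) and Ikzf2 without mouse10360, mouse10361, mouse10365 or mouse10376 (adjusted p up to 0.152). Ets1 missed the threshold in each of the 5 fits without 1 mouse, with adjusted p up to 0.237.

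Cd28 and Cd247, known from T cell signalling, were among the largest rises. Cd28, the costimulatory receptor of T cells, was at 0, 0.267, 0, 0.153 and 0.387 CPM in the LMPPs and 86.7, 80.3, 73.8, 88.8 and 30.1 CPM in the ALPs (log2 fold change 8.71 ± 0.79 SE, adjusted p = 0.000981). LMPPs held 5 Cd28 counts in all, and the ALP of mouse10384 was lowest among ALPs, with a pooled ratio of 458 (95% interval 196 to 1411). Cd247, the zeta chain of the T cell receptor complex, was at 0.147, 0.267, 2.68, 0.153 and 0.968 CPM in the LMPPs and 33.9, 28.8, 40.7, 62.4 and 86.5 CPM in the ALPs (log2 fold change 6.50 ± 0.76 SE, adjusted p = 0.00445). It overlaps Pou2f1 on the other strand, which limits its counts. Of 20 Notch and T lineage genes, 10 were tested, 9 were positive with a median of 2.07, and Cd28 alone was called. Of the 10, 4 passed the filter through the ALPs alone. The list's calls were 3 without the mouse as a block, 5 with the newer edgeR estimator and 6 with DESeq2. Ptcra, Bcl11b and Cd3e had no count in any of the 10 libraries. Others without a call were Notch2 (567 ± 286 and 633 ± 254 CPM, adjusted p = 0.856), Lat (183 ± 20.1 and 189 ± 60.1 CPM, adjusted p = 0.974) and Lck (133 ± 38.5 and 216 ± 65.1 CPM, adjusted p = 0.158). Notch1 (means of 33.8 and 109 CPM, adjusted p = 0.132) and Zap70 (2.43 and 20.5 CPM, adjusted p = 0.179) rose in 5 of 5 mice, uncalled. So did Hes1 (0.956 and 17.0 CPM, adjusted p = 0.158) and Dtx4 (11.2 and 54.6 CPM, adjusted p = 0.218). They were singled out after their values were seen. The 1 tested member with a negative log2 fold change was Gata3 (adjusted p = 0.961). In the list of mature T, NK and innate lymphoid cells, 5 of 17 were tested, none was called and 6 genes, Cd8a, Gzma and Ncr1 among them, were at 0.

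Several genes known from dendritic cells and phagocytes rose beside the lymphoid ones. Irf8, the factor that directs dendritic and monocyte fates and acts in early B cells, was at 40.3, 30.0, 118, 15.7 and 11.2 CPM in the LMPPs and 494, 505, 414, 868 and 319 CPM in the ALPs (log2 fold change 4.11 ± 0.51 SE, adjusted p = 0.00583). Siglech, a lectin of plasmacytoid dendritic cells, was at 0.735, 0.667, 0.357, 0 and 1.74 CPM in the LMPPs and 34.1, 62.3, 29.7, 72.9 and 33.4 CPM in the ALPs (log2 fold change 6.28 ± 0.86 SE, adjusted p = 0.00907). Neither gene overlapped between populations. Mpeg1, the pore-forming perforin-2 of phagocytes, had the smallest adjusted p of the step and was at 0.883, 0.933, 0.179, 0.458 and 1.74 CPM in the LMPPs and 223, 201, 41.5, 118 and 210 CPM in the ALPs (log2 fold change 7.68 ± 0.35 SE, adjusted p = 1.69e-05). Its ratio of pooled counts per library total was 195 (95% interval 133 to 298). Ly86, the MD-1 partner of a Toll-like receptor homologue, went from 0.294, 3.60, 3.04, 0.458 and 2.32 to 215, 98.9, 135, 76.1 and 185 CPM (log2 fold change 6.42 ± 0.63 SE, adjusted p = 0.00142). Clec12a, an inhibitory lectin of myeloid cells, went from 81.2, 103, 96.1, 54.8 and 44.1 to 719, 661, 710, 386 and 558 CPM (log2 fold change 3.11 ± 0.23 SE, adjusted p = 0.000357). Of 17 dendritic cell genes, 11 were tested, 8 were positive with a median of 0.35, and Irf8 and Siglech were called. The 3 negative members were H2-Aa (means of 96.5 and 31.3 CPM, adjusted p = 0.158), H2-Ab1 (190 and 123 CPM, adjusted p = 0.825) and H2-Eb1 (23.8 and 23.4 CPM, adjusted p = 0.986). The summed level was 875 to 1267 CPM in the LMPPs and 1497 to 2239 CPM in the ALPs. No call was made for Tcf4 (331 ± 69.0 and 404 ± 129 CPM, adjusted p = 0.667), Runx2 (134 ± 37.7 and 240 ± 27.8 CPM, adjusted p = 0.0615) and Bst2 (142 ± 11.2 and 173 ± 24.8 CPM, adjusted p = 0.641). Siglech missed the threshold without mouse10361 (adjusted p = 0.0632), and Siglec genes resemble each other, so its counts are uncertain.

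Neutrophil and monocyte genes went both ways. Of 26 listed, 16 were tested, 5 were positive, Ly86 and Clec12a rose, and Prtn3 and Csf3r fell. Prtn3, a granule serine protease, was at 290, 141, 90.0, 29.8 and 124 CPM in the LMPPs and 33.0, 27.9, 12.7, 11.2 and 9.62 CPM in the ALPs (log2 fold change -2.60 ± 0.34 SE, adjusted p = 0.00825), and it overlaps Plppr3. The LMPP of mouse10376 lay below the ALP of mouse10360, so the populations overlapped although each mouse fell. Csf3r, the receptor of the granulocyte growth factor G-CSF, fell from 114 ± 61.6 to 24.0 ± 13.7 CPM (log2 fold change -2.21 ± 0.41 SE, adjusted p = 0.0330). Uncalled members included Mpo (932 ± 558 and 862 ± 520 CPM, adjusted p = 0.981), Lyz2 (377 ± 52.2 and 147 ± 36.1 CPM, adjusted p = 0.0506) and Ctsg (136 ± 46.6 and 106 ± 23.5 CPM, adjusted p = 0.821). The summed list held 1298 to 2959 CPM in the LMPPs and 1586 to 2696 CPM in the ALPs, and Ltf and Fcnb were at 0. In fits without 1 mouse, the call was lost for Prtn3 without mouse10360 (adjusted p up to 0.0674) and Csf3r without mouse10360, mouse10361, mouse10365 or mouse10384 (adjusted p up to 0.180).

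The remaining genes with the largest rises were mostly close to absent in LMPPs. Gfra1, a receptor subunit for the growth factor GDNF, had 4 counts over the LMPPs and was at 61.7, 25.8, 29.6, 66.7 and 10.5 CPM in ALPs (log2 fold change 8.13 ± 1.16 SE, adjusted p = 0.0106). Mycl, a MYC family factor expressed in dendritic cells, was at 0, 0, 0, 0 and 2.32 CPM in the LMPPs and 59.0, 20.3, 17.2, 21.1 and 15.6 CPM in the ALPs (log2 fold change 7.89 ± 1.52 SE, adjusted p = 0.0417). Its LMPP counts came from mouse10384 alone, and the ALP of mouse10360 was highest. Rab7b, a late endosomal GTPase, was at 0, 0, 3.93, 0 and 0 CPM in the LMPPs and 26.1, 18.5, 26.9, 29.8 and 45.1 CPM in the ALPs (log2 fold change 7.85 ± 1.47 SE, adjusted p = 0.0360). Adam2, known from sperm, was at 0, 0.133, 0, 0 and 2.32 CPM in the LMPPs and 23.6, 8.45, 31.3, 18.3 and 26.0 CPM in the ALPs (log2 fold change 7.03 ± 1.36 SE, adjusted p = 0.0420). Tmem119, a microglial marker, was at 0, 0.400, 5.89, 0.153 and 0.387 CPM in the LMPPs and 37.9, 90.5, 25.4, 199 and 19.95 CPM in the ALPs (log2 fold change 6.83 ± 1.21 SE, adjusted p = 0.0292). All 5 ALPs were above all 5 LMPPs for each of these genes. Rgs8, a regulator of G protein signalling, had 1 count over the LMPPs and a mean of 6.05 ± 3.38 CPM in ALPs, a ratio of 195 (95% interval 34.6 to 7729) with an adjusted p of 0.0436. With 1 mouse left out, the threshold was missed by Gfra1 without mouse10360 or mouse10361 (adjusted p up to 0.0712), Mycl without mouse10360, mouse10361, mouse10365 or mouse10376 (adjusted p up to 0.218), Rab7b without mouse10360, mouse10361, mouse10376 or mouse10384 (adjusted p up to 0.155), Adam2 without mouse10360, mouse10361, mouse10365 or mouse10376 (adjusted p up to 0.176) and Tmem119 without mouse10360, mouse10361, mouse10376 or mouse10384 (adjusted p up to 0.152). Rgs8 missed the threshold in each of the 5 fits without 1 mouse, with adjusted p up to 0.277. Scaling by library totals alone gave adjusted p-values of 0.0560, 0.0564 and 0.0502 for Mycl, Adam2 and Rgs8.

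Homing and adhesion genes showed 3 rises among 13 tested of 14, with 7 positive. Cxcr4 and Itga4 were among them. Cxcr4, the receptor that holds progenitors in the marrow, was at 17.6, 112, 73.2, 14.2 and 20.3 CPM in the LMPPs and 44.3, 297, 282, 39.9 and 56.8 CPM in the ALPs (log2 fold change 1.61 ± 0.24 SE, adjusted p = 0.0114). Both mouse10361 and mouse10365 were high in both populations, so the groups overlapped and the rise is one within mice. Without the mouse as a block the adjusted p was 0.383. The summed immediate early and heat shock genes, a sign of handling stress, also differed widely, 475 to 2921 CPM in the LMPPs and 466 to 3544 CPM in the ALPs, none called, and their part in the Cxcr4 values was not tested. Itga4, the α4 integrin, rose from 55.8 ± 24.8 to 146 ± 34.0 CPM (log2 fold change 1.53 ± 0.27 SE, adjusted p = 0.0275). No call was made for Selplg (483 ± 109 and 733 ± 232 CPM, adjusted p = 0.260), Cd44 (383 ± 40.1 and 409 ± 118 CPM, adjusted p = 0.920) and Itgb1 (234 ± 64.4 and 164 ± 24.96 CPM, adjusted p = 0.574). When 1 mouse was left out, the call was lost for Cxcr4 without mouse10360, mouse10361, mouse10365 or mouse10384 (adjusted p up to 0.0964) and Itga4 without mouse10360, mouse10361 or mouse10384 (adjusted p up to 0.157). Scaling by library totals alone gave Itga4 an adjusted p of 0.0504. Without mouse10360, mouse10361 or mouse10384, none of the 3 genes was called.

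Of 29 stem and multipotent cell genes, 25 were tested, all 25 were negative and 7 fell, with a median log2 fold change of -1.92 beside -0.05 for all genes. Of the 25, 14 passed the filter in both populations and 10 through the LMPPs alone. The summed level of all 29 was 4182 to 5392 CPM in the LMPPs and 1352 to 2375 CPM in the ALPs. Hlf, a transcription factor of stem cells, was at 369, 322, 230, 292 and 402 CPM in the LMPPs and 6.41, 3.72, 7.15, 16.1 and 22.4 CPM in the ALPs (log2 fold change -5.01 ± 0.40 SE, adjusted p = 0.000506). Myct1, an endothelial and stem cell gene, was at 235, 163, 99.8, 206 and 149 CPM in the LMPPs and 9.20, 1.86, 7.63, 9.22 and 9.48 CPM in the ALPs (log2 fold change -4.51 ± 0.44 SE, adjusted p = 0.00142). Both were low in every ALP, far below every LMPP. Meis1, the homeobox partner of HOXA9, was at 331, 295, 306, 278 and 254 CPM in the LMPPs and 174, 98.7, 111, 151 and 118 CPM in the ALPs (log2 fold change -1.11 ± 0.20 SE, adjusted p = 0.0303). Hoxa9 itself fell from 290 ± 39.98 to 102 ± 10.4 CPM (log2 fold change -1.43 ± 0.20 SE, adjusted p = 0.0103). Lmo2, a bridging protein of stem cell transcription factors, fell from 573 ± 102 to 170 ± 55.9 CPM (log2 fold change -1.72 ± 0.20 SE, adjusted p = 0.00445). Angpt1, a ligand of the TIE2 receptor, was at 488, 438, 369, 502 and 368 CPM in the LMPPs and 59.0, 98.5, 38.2, 159 and 123 CPM in the ALPs (log2 fold change -2.26 ± 0.29 SE, adjusted p = 0.00679). Cd34, a sialomucin of progenitors, was at 1875, 2195, 2619, 1282 and 1401 CPM in the LMPPs and 565, 679, 729, 1045 and 671 CPM in the ALPs (log2 fold change -1.25 ± 0.24 SE, adjusted p = 0.0384). All 7 were separated between populations without overlap. Members without a call included Gfi1b (149 ± 69.6 and 109 ± 50.1 CPM, adjusted p = 0.730) and Egr1 (81.3 ± 65.9 and 84.4 ± 114 CPM, adjusted p = 0.702). In fits without 1 mouse, the call was lost for Meis1 without mouse10360, mouse10361, mouse10365 or mouse10384 (adjusted p up to 0.190), Hoxa9 without mouse10360 or mouse10361 (adjusted p up to 0.0726) and Cd34 without mouse10360, mouse10361, mouse10365 or mouse10384 (adjusted p up to 0.218). The list's calls were 4 without mouse10360 and 4 without mouse10361.

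Among genes of red cells and platelets, Car2 and Itga2b fell and Tfrc rose. Car2, carbonic anhydrase 2, was at 1892, 2263, 1331, 2872 and 2478 CPM in the LMPPs and 192, 211, 195, 130 and 171 CPM in the ALPs (log2 fold change -3.48 ± 0.30 SE, adjusted p = 0.000677). Tfrc, the transferrin receptor, is listed with erythroid genes but is also expressed by dividing cells, and rose from 47.7, 60.3, 81.1, 103 and 105 to 1054, 681, 640, 759 and 554 CPM (log2 fold change 3.31 ± 0.32 SE, adjusted p = 0.00142). Of 14 erythroid genes, 3 were tested, and Gata1 and Ermap had no count. Of 10 megakaryocyte and platelet genes, 2 were tested and Itga2b, the CD41 integrin, was called, with a mean of 6.64 CPM in LMPPs and 2 counts in ALPs, a ratio of LMPP to ALP of 120 (95% interval 32.7 to 995) and an adjusted p of 0.0485. The platelet list summed to 13.8 to 58.1 CPM in the LMPPs and 0 to 8.59 CPM in the ALPs. Itga2b missed the threshold in each of the 5 fits without 1 mouse, with adjusted p up to 0.202. Scaling by library totals alone gave Itga2b an adjusted p of 0.0513. Car2 and Tfrc were called in all 5 fits without 1 mouse.

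Most of the other genes with the largest falls reached a few counts in ALPs. Nxph1, which encodes neurexophilin 1, was at 21.9, 30.1, 45.4, 15.4 and 11.8 CPM in LMPPs and had no count in any of the 5 ALPs, at least 296-fold lower against a floor of 3 counts over the group (adjusted p = 0.0317). Nqo1, a quinone reductase, Cyp7b1, an oxysterol hydroxylase, and Tgfbi, an extracellular matrix protein, each had 1 count over the ALPs. Their LMPP means were 17.2 ± 9.39, 13.0 ± 6.03 and 11.3 ± 7.51 CPM. The LMPP to ALP ratios were 576 (95% interval 103 to 22779) for Nqo1, 456 (95% interval 81.5 to 18072) for Cyp7b1 and 406 (95% interval 72.4 to 16074) for Tgfbi. Their adjusted p-values were 0.0106, 0.0265 and 0.0360. Ptgs1, cyclooxygenase 1, and Cabyr, a calcium-binding sperm protein, had 3 counts each in ALPs, with ratios of 185 (95% interval 63.0 to 901) and 114 (95% interval 38.7 to 557) and adjusted p-values of 0.0296 and 0.0390. Tbxas1, the thromboxane synthase downstream of cyclooxygenase, was at 88.0, 85.3, 119, 94.0 and 97.1 CPM in the LMPPs and 0.418, 0.573, 16.2, 5.48 and 5.94 CPM in the ALPs (log2 fold change -4.78 ± 0.75 SE, adjusted p = 0.0154), and it overlaps Hipk2. Tfec, a MITF family factor, was at 61.5, 36.4, 8.57, 26.0 and 25.5 CPM in LMPPs and had 5 counts in ALPs (log2 fold change -7.97 ± 1.06 SE, adjusted p = 0.00841). Hnmt, which inactivates histamine, fell from 30.5 ± 13.96 to 1.27 ± 1.80 CPM (log2 fold change -5.63 ± 1.001 SE, adjusted p = 0.0292). Cd200, an inhibitory surface ligand, was at 37.8, 47.9, 35.5, 63.9 and 78.8 CPM in the LMPPs and 5.71, 5.73, 0.159, 2.62 and 0.566 CPM in the ALPs (log2 fold change -4.64 ± 0.85 SE, adjusted p = 0.0319). When 1 mouse was left out, the call was lost for Nqo1 without mouse10360, mouse10376 or mouse10384 (adjusted p up to 0.0699), Cyp7b1 without mouse10360, mouse10361, mouse10365 or mouse10384 (adjusted p up to 0.179), Ptgs1 without mouse10360, mouse10361, mouse10365 or mouse10384 (adjusted p up to 0.135), Hnmt without mouse10360, mouse10361, mouse10365 or mouse10384 (adjusted p up to 0.127), Nxph1 without mouse10360, mouse10361, mouse10365 or mouse10384 (adjusted p up to 0.0896), Tfec without mouse10360 or mouse10361 (adjusted p up to 0.0590) and Tbxas1 without mouse10360, mouse10361 or mouse10384 (adjusted p up to 0.0655). Tgfbi, Cabyr and Cd200 missed the threshold in each of the 5 fits without 1 mouse, with adjusted p up to 0.177, 0.185 and 0.111 respectively.

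Of 25 interferon response genes, all were tested, 19 were negative and 4 fell, with a median of -0.72, 16 passing the filter in both populations and 6 through the LMPPs alone. The summed level was 1980 to 3264 CPM in the LMPPs and 887 to 1555 CPM in the ALPs, without overlap. Ifitm3 (means of 660 and 239 CPM) and Ifitm1 (means of 559 and 80.9 CPM) were the largest parts of this sum in LMPPs. Gbp2, an interferon-induced GTPase, was at 112, 84.1, 102, 94.9 and 128 CPM in the LMPPs and 19.0, 14.6, 21.8, 13.96 and 29.7 CPM in the ALPs (log2 fold change -2.36 ± 0.29 SE, adjusted p = 0.00524). Ifitm1, a membrane protein that restricts virus entry and is also a stem cell gene, was at 649, 346, 238, 687 and 875 CPM in the LMPPs and 73.6, 53.8, 77.0, 39.1 and 161 CPM in the ALPs (log2 fold change -2.72 ± 0.37 SE, adjusted p = 0.00907). Ifitm3, its neighbour, fell from 660 ± 126 to 239 ± 66.3 CPM (log2 fold change -1.41 ± 0.28 SE, adjusted p = 0.0471), and Oasl2, of the oligoadenylate synthetase family, fell from 112 ± 18.4 to 30.3 ± 23.4 CPM (log2 fold change -2.15 ± 0.43 SE, adjusted p = 0.0492). All 4 belong to families of similar copies, which limits their counts. No call was made for Rtp4 (338 ± 151 and 205 ± 97.5 CPM, adjusted p = 0.690), Ifi44 (147 ± 36.9 and 116 ± 50.5 CPM, adjusted p = 0.844) and Gbp7 (111 ± 34.2 and 102 ± 26.7 CPM, adjusted p = 0.986). The Gbp2 promoter (chr3:142620413-142620712, plus strand, RefSeq GRCm38.p6) is shown for its match to the interferon regulatory factor motif on the other strand, in capitals, starting at -59.
Gbp2: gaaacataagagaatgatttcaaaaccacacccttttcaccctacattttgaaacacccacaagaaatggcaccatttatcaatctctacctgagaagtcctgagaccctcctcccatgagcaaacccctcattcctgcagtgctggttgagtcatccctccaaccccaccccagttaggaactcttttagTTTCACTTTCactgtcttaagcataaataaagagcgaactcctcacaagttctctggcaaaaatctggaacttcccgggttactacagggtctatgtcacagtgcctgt
In fits without 1 mouse, the call was lost for Ifitm1 without mouse10360 or mouse10361 (adjusted p up to 0.0590), Ifitm3 without mouse10360, mouse10361 or mouse10384 (adjusted p up to 0.209) and Oasl2 without mouse10360, mouse10361, mouse10376 or mouse10384 (adjusted p up to 0.218). The list's calls were 1 without mouse10360, 1 without mouse10361 and 2 without mouse10384, and Oasl2 had an adjusted p of 0.0731 without the mouse as a block.

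Cell cycle genes were mostly positive and rarely called. Of 21 S phase genes, all tested, 20 were positive with a median of 0.49, and Rrm2 alone was called. Rrm2, the small subunit of ribonucleotide reductase, was at 171, 152, 149, 115 and 66.2 CPM in the LMPPs and 309, 253, 260, 370 and 182 CPM in the ALPs (log2 fold change 1.18 ± 0.22 SE, adjusted p = 0.0314). The lowest ALP was above the highest LMPP. No call was made for Mcm6 (1159 ± 464 and 1247 ± 508 CPM, adjusted p = 0.867), Mcm4 (417 ± 124 and 512 ± 135 CPM, adjusted p = 0.544) and Mcm3 (401 ± 166 and 481 ± 288 CPM, adjusted p = 0.853). Of 20 genes of G2 and mitosis, all tested, 15 were positive and none was called. With 1 mouse left out, the threshold was missed by Rrm2 without mouse10360, mouse10361, mouse10365 or mouse10384 (adjusted p up to 0.149). Scaling by library totals alone gave an adjusted p of 0.0504 for Rrm2.

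Of 15 NuRD genes listed, 13 were tested, 8 were positive with a median of 0.17, and Mta3 alone rose, from 116 ± 22.3 to 314 ± 65.5 CPM (log2 fold change 1.52 ± 0.21 SE, adjusted p = 0.0105). Mta3 encodes a metastasis-associated subunit known from germinal centre B cells. No call was made for Rbbp7 (916 ± 159 and 820 ± 186 CPM, adjusted p = 0.938), Rbbp4 (179 ± 53.3 and 165 ± 36.2 CPM, adjusted p = 0.986) and Chd4 (113 ± 16.9 and 139 ± 71.1 CPM, adjusted p = 0.824). When 1 mouse was left out, the call was lost for Mta3 without mouse10360 or mouse10361 (adjusted p up to 0.0769).

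Markers of other cells that a gate could hold were given as summed levels. The macrophage list held 241 to 383 CPM in the LMPPs and 142 to 189 CPM in the ALPs, with Adgre1, Mertk and Marco at 0 and no member called of 4 tested. The stromal and endothelial list held 163 to 257 CPM in the LMPPs and 167 to 309 CPM in the ALPs, with Col3a1 at 0 and no call among 2 tested. The mature B and plasma cell list held 1751 to 2693 CPM in the LMPPs and 2747 to 4156 CPM in the ALPs, largely Ighm (1366 ± 270 and 2344 ± 614 CPM, adjusted p = 0.0790), with Ms4a1, Fcer2a and Iglc1 at 0 and no call among 5 tested. The macrophage sum was lower in every ALP than in every LMPP and was mostly Cd68 (means of 232 and 134 CPM). The difference in mean log2(CPM + 1) of the same list was positive in 2 of 5 mice, and Csf1r went the other way, with means of 5.86 and 24.9 CPM (adjusted p = 0.125). The list's part in the myeloid differences was not tested.

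**Figure D3:**
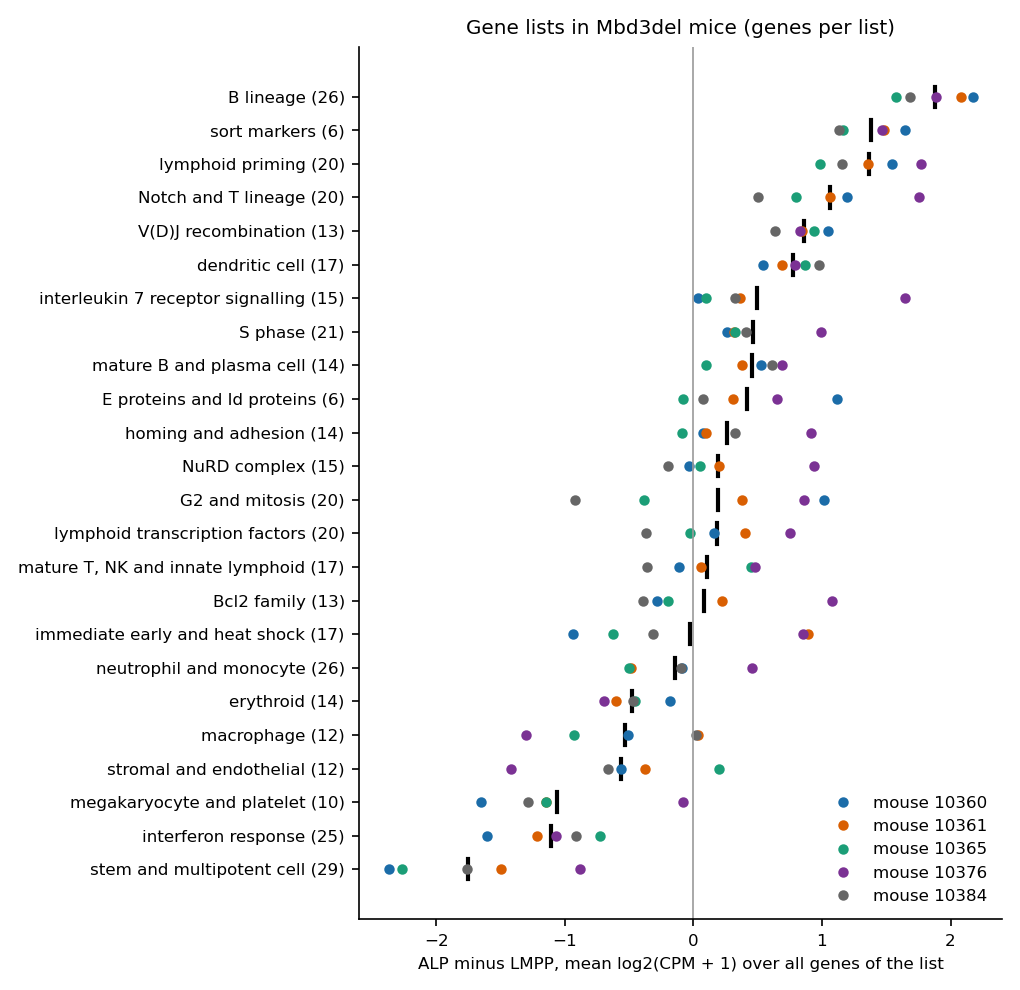
Difference between ALP and LMPP of each Mbd3del mouse in the mean log2(CPM + 1) of all genes of each of 24 lists; points are 5 mice and black bars their mean. The B lineage mean is 1.88 (range over the 5 mice 1.57 to 2.17), the stem and multipotent cell mean -1.75 (range over the 5 mice -2.37 to -0.88), and the interferon response mean -1.11 (range over the 5 mice -1.60 to -0.73); the mice of all 3 lists stay on 1 side of 0.

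The 4 populations of the same Mbd3del mice placed the step in a longer series, as means ± SD in haematopoietic stem cells (HSCs), LMPPs, ALPs and BLPs. Hlf stood at 658 ± 276, 323 ± 66.9, 11.1 ± 7.80 and 5.59 ± 8.46 CPM, and Myct1 at 427 ± 39.4, 171 ± 52.4, 7.48 ± 3.22 and 0.178 ± 0.255 CPM. The ALP means of both were far below the HSC means and above the BLP means. Rag1 stood at 0.344 ± 0.221, 1.01 ± 1.12, 52.3 ± 19.6 and 163 ± 57.6 CPM, and Ebf1 at 0.323 ± 0.376, 1.30 ± 2.22, 48.3 ± 25.2 and 157 ± 50.1 CPM. For both, the mean ALP level was between those of LMPPs and BLPs. Dntt stood at 25.1 ± 8.39, 1695 ± 705, 6717 ± 1064 and 4082 ± 875 CPM, with its highest mean in ALPs. Irf8 stood at 7.52 ± 5.16, 43.1 ± 43.5, 520 ± 208 and 1141 ± 267 CPM, Siglech at 0.904 ± 0.252, 0.700 ± 0.651, 46.5 ± 19.7 and 606 ± 311 CPM and Mpeg1 at 1.15 ± 0.556, 0.839 ± 0.593, 159 ± 77.3 and 330 ± 120 CPM. Car2 stood at 2193 ± 620, 2167 ± 587, 180 ± 31.1 and 106 ± 46.3 CPM. These levels are descriptions, and steps other than LMPP to ALP were not tested here.

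**Figure D4:**
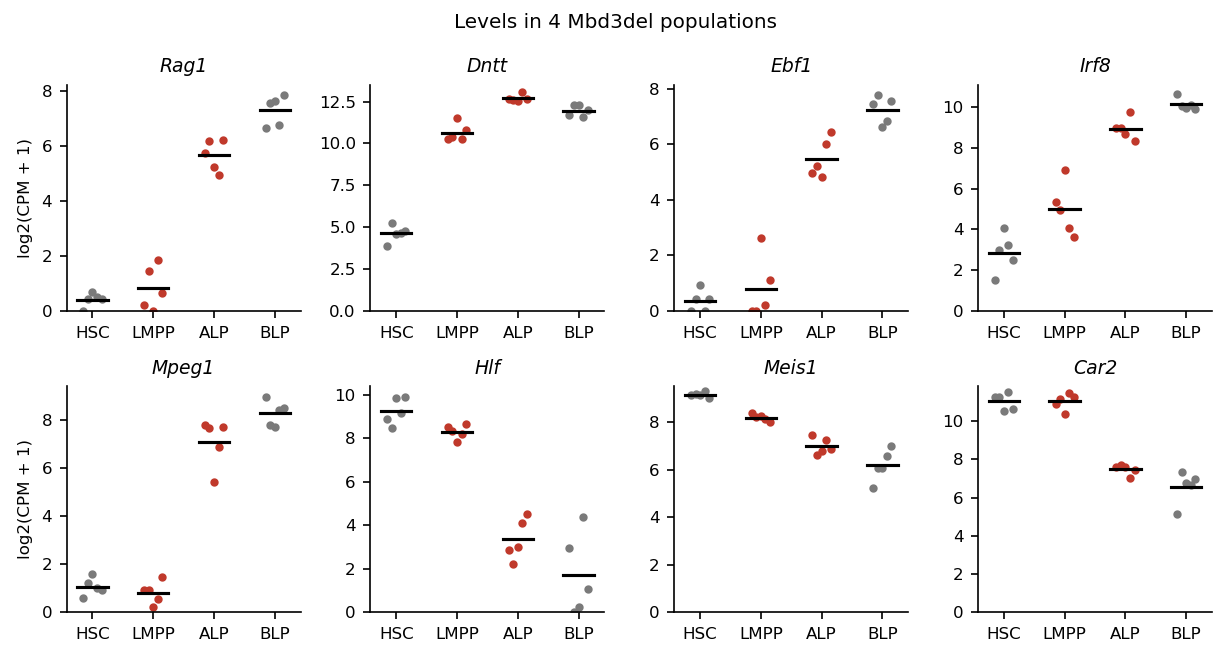
Levels of Rag1, Dntt, Ebf1, Irf8, Mpeg1, Hlf, Meis1 and Car2 in HSCs, LMPPs, ALPs and BLPs of the 5 Mbd3del mice, as log2(CPM + 1). Each point is 1 mouse, red in LMPPs and ALPs and grey in HSCs and BLPs, and black bars are means. The mean bars of Rag1, Dntt, Ebf1, Irf8 and Mpeg1 are higher in ALPs than in LMPPs, and those of Hlf, Meis1 and Car2 are lower.

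The same step in mice with intact Mbd3 was set beside these values. The control mice gave 54 called genes of 10871 tested (0.497%), 27 in each direction, with 747 at an unadjusted p under 0.05, and they share no library with the Mbd3del step. Of the 154 genes called in Mbd3del mice, 147 were tested in control mice and 145 had the same sign (98.6%), beside 55.3% of all 10524 genes tested in both. The exceptions were Rrm2 (control log2 fold change -0.16, adjusted p = 0.945) and Tex2. Called in both were 40 genes, 26.0% of the Mbd3del calls and 74.1% of the control calls, and the 53 control calls tested in Mbd3del mice all had the same sign. Taken in the direction of the Mbd3del step, the median log2 fold change over the 147 genes was 2.16 in Mbd3del and 2.05 in control mice. The genes were picked on the Mbd3del step, which favours a larger value there. Dntt, Irf8, Cd28, Hlf and Car2 were among those called in both, with control log2 fold changes of 2.52 (adjusted p = 0.0158), 4.44 (adjusted p = 0.0123), 7.56 (adjusted p = 0.0316), -4.15 (adjusted p = 0.0332) and -3.85 (adjusted p = 0.00913) in that order. Ebf1, Rag1, Mpeg1 and Cd34 were called in Mbd3del mice and missed the threshold in control mice, at 7.51 (adjusted p = 0.0677), 5.79 (adjusted p = 0.185), 6.17 (adjusted p = 0.0605) and -0.47 (adjusted p = 0.866) in that order, which does not show that their steps differed. The control count was 2 without mouse10372 and mouse10381, whose sex labels were contradicted, and ranged from 1 to 43 when 1 control mouse was left out: 1 without mouse10357, 5 without mouse10358, 22 without mouse10380, 43 without mouse10372 and 1 without mouse10381.

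The difference of the step between genotypes was tested directly over the 20 libraries. None of 12237 genes passed (0%), and the smallest adjusted p was 0.972. An unadjusted p under 0.05 was reached by 372 genes, fewer than the 612 that chance alone would give. DESeq2 called 35, 9 with a higher and 26 with a lower log2 step in Mbd3del mice. No gene was called without control mouse10372 and mouse10381. A count of 0 does not show that the steps were alike. The 5 genes with the smallest unadjusted p did not pass in edgeR and were all among the 35 called by DESeq2, with DESeq2 adjusted p-values of 0.000917 for Serpinb6a, 0.00465 for Mgst1, 0.0144 for Lgals1, 0.000917 for Dnhd1 and 0.0103 for Zyg11b. The adjusted p-values that follow are from edgeR. Serpinb6a, a serpin that overlaps Nqo2 and Ripk1, went from 40.2 ± 11.2 to 12.6 ± 8.29 CPM in Mbd3del mice and from 11.4 ± 12.5 to 30.1 ± 19.97 CPM in control mice (difference of log2 fold changes -3.45 ± 0.748 SE, adjusted p = 0.972). Mgst1, a microsomal glutathione transferase, went from 120 ± 75.1 to 56.4 ± 40.9 CPM in Mbd3del mice and from 142 ± 95.4 to 9.42 ± 4.83 CPM in control mice (difference 3.05 ± 0.678 SE, adjusted p = 0.972). Lgals1, galectin 1, was at 12.6, 16.5, 6.25, 14.4 and 20.5 CPM in the LMPPs and 125, 98.2, 132, 79.4 and 93.0 CPM in the ALPs of Mbd3del mice, a rise with adjusted p = 0.00841, and went from 182 ± 71.5 to 299 ± 105 CPM in control mice (difference 2.34 ± 0.539 SE, adjusted p = 0.972). Every Mbd3del LMPP was below every control LMPP for Lgals1, and every Mbd3del ALP below every control ALP. Dnhd1 and Zyg11b had differences of -7.36 ± 1.78 SE and -3.19 ± 0.778 SE (adjusted p = 0.972 for Dnhd1 and adjusted p = 0.972 for Zyg11b). Of the 154 genes called in the Mbd3del step, 19 had an unadjusted difference p under 0.05, beside 372 of all 12237. The 154 were picked on the Mbd3del step, which is itself part of this difference. That choice favours small p-values, so the 19 are not evidence of a difference. Among the 19 were Clec12a, going from 186 ± 114 to 536 ± 249 CPM in control mice (difference 1.73 ± 0.441 SE), and Myb, going from 527 ± 151 to 590 ± 131 CPM (difference 0.95 ± 0.266 SE). Rrm2 went from 190 ± 65.7 to 197 ± 109 CPM in control mice (difference 1.36 ± 0.411 SE), and Tbxas1 from 81.6 ± 40.5 to 18.8 ± 11.98 CPM (difference -2.70 ± 0.854 SE). Tfec had a difference of -4.01 ± 1.72 SE. Of these 5, DESeq2 called Clec12a (adjusted p = 0.0372) and Myb (adjusted p = 0.0415).

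**Figure D5:**
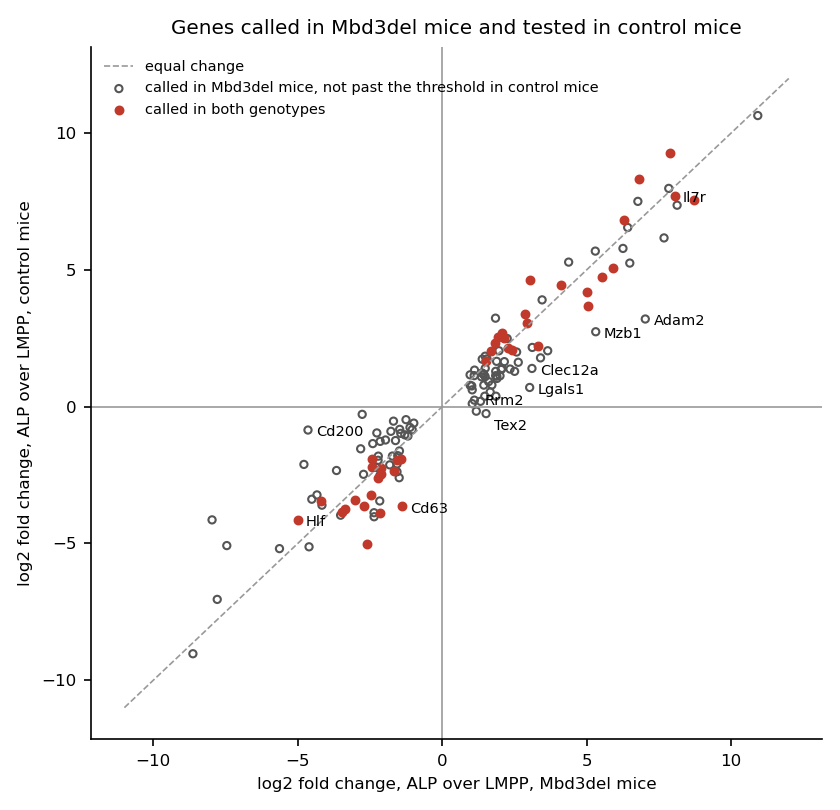
Log2 fold change from LMPP to ALP in Mbd3del mice (horizontal axis) against control mice (vertical axis) for the 147 genes called in Mbd3del mice and tested in control mice. Red points are the 40 genes called in both genotypes; other points were called in Mbd3del mice and missed the threshold in control mice. Apart from Rrm2 and Tex2, the points lie in the 2 quadrants of equal sign.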

How the data were processed

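Gene expression was measured by RNA-seq of sorted cell pools, prepared by Smart-seq2 and Nextera XT without molecular identifiers or strand marking, per the labels' protocols. The authors deposited raw read counts per gene, made by STAR 2.5.2b alignment to GRCm38 and HTSeq 0.6.1p1 counting according to the submitters' processing notes, which name neither annotation release nor strand setting. Of 128910 rows, 49585 genes were used and 79325 repRegion rows were left out. Symbols and coordinates came from GENCODE M21 for 49326 identifiers, and promoters from RefSeq (GRCm38.p6).

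The step was tested in edgeR 4.0.16 by its quasi-likelihood F test (R 4.3.3; TMM scaling, robust estimates, the default filter with a minimum count of 10 and total of 15), with mouse as a block and Benjamini-Hochberg adjustment over all genes tested at 0.05. Every adjusted p of a gene, and every p of the difference, comes from this test unless DESeq2 1.42.0 or limma 3.58.1 is named. The standard error of a fold change was derived from its F statistic. The difference between genotypes was a term of a joint fit of 20 libraries. The filter required about 1.45 CPM in 5 libraries. Passing it through 1 population alone favours list members that are higher there, so list counts and medians are descriptions. Ratio intervals are 95%, and floors 3 counts, both for counting error only. The test was checked on simulated data.

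LMPPs and ALPs with the same number came from the same animal, per the labels, so the fit was paired. Deviations of the same mouse's libraries from their group means correlated at 0.0188 on average (-0.183 to 0.188), against -0.0044 between mice. The genes named were, by rule, the 12 per direction with the largest fold among called genes of at least 5 CPM in the higher population and 1 direction in 5 mice (unnamed gene models left out), the 5 smallest p of the difference, Mbd3, sort markers, called members of the 24 lists (370 genes) and up to 3 abundant uncalled members per list. The comparison, lists and tests were chosen with earlier results of these data known. The alternatives were the fit without the block, other tools, scalings and filters, and leaving out mice. Some list members are not reported here by name.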

Additional observations from a re-analysis of the deposited data

Results flagged for a closer look

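In groups of 5 libraries, a value was singled out by Dixon's test at its usual critical value, where the gap to the nearest other value takes most of the group's range. This held for 12 of 128 groups examined. Chance gives about 1 in 20 for continuous values, but in 6 of the 12 the other 4 libraries had no count, so that any count was singled out and that rate does not apply. Cd28 in the ALP of mouse10384 was at 30.145 CPM, below the others at 73.8 to 88.8 CPM. Mycl in the ALP of mouse10360 was at 58.959 CPM, above the others at 15.6 to 21.1 CPM. In LMPPs, Mycl and Adam2 were each at 2.3221 CPM in mouse10384 and Rgs8 at 0.19351 CPM there, with the other 4 mice at 0 for Mycl and Rgs8 and at most 0.133 CPM for Adam2. Rab7b was at 3.9281 CPM and Tmem119 at 5.8922 CPM in the LMPP of mouse10365, with the others at 0 and at most 0.400 CPM. In ALPs, single counts gave Nqo1 0.12461 CPM in mouse10376, Cyp7b1 0.14319 CPM in mouse10361 and Tgfbi 0.14153 CPM in mouse10384, with no count in the others. The mean log2(CPM + 1) of the sort markers was 7.1311 in the LMPP of mouse10384, against 6.23 to 6.46 in the others. That of the mature T, NK and innate lymphoid genes was 1.7399 in the same library, against 1.19 to 1.34.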

How the results depend on the processing

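None of the 62 named called genes reversed its direction under any setting run (named genes that were not called were not followed), and 19 of them were called in each of the 5 fits that left out 1 Mbd3del mouse. The Mbd3del step gave 242 calls without the replicate block (the mouse pairing), 789 with DESeq2, 306 with the newer edgeR estimator and 240 without the expression filter; limma voom, other scalings, a minimum count of 50 and a joint fit of 20 libraries gave 128 to 219. Leaving out 1 mouse gave 38 to 232. Counts of list members called moved by over 1.5 times with DESeq2 for stem genes (16 against 7), interferon response (10 against 4), lymphoid priming (10 against 6), homing (5 against 3), Notch and T lineage (6 against 1) and, among rises, lymphoid transcription factors (5 against 2), dendritic genes (4 against 2) and myeloid genes (4 against 2). Without the replicate block, S phase gave 2 against 1. The control step gave 54 calls, 102 without the replicate block, 504 with DESeq2, 107 with limma voom, 135 with the newer estimator, 111 without the filter, 2 without mouse10372 and mouse10381, and 1 to 43 without 1 mouse. The difference between genotypes gave 35 with DESeq2, 1 without the filter and 0 otherwise. The cause of these shifts was not tested, and fits that left out mice also held fewer libraries. In the joint fit of 20 libraries the threshold was missed by Rab7b, Rgs8, Adam2, Cyp7b1, Ptgs1, Itga2b, Cabyr, Hnmt, Cd200, Ly6a, Blk, Cd34, Rrm2, Mzb1, Ikzf2, Gbp2, Csf3r and Ets1. Ifitm3 had an adjusted p of 0.0518 with RLE scaling. Genes that reached about 1.45 CPM in fewer than 5 libraries were not tested, whatever their mean. A library's 3 counts bound what its depth could show.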

Other observations

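Several other genes of the Mbd3del step were called in the full set and in all 5 fits without 1 mouse. They were chosen after their values were seen and lie outside the rule for named genes. Cox6a2, a muscle-type subunit of cytochrome c oxidase, was at 9.85, 10.5, 9.46, 7.33 and 32.7 CPM in the LMPPs and 727, 515, 479, 288 and 755 CPM in the ALPs (log2 fold change 5.53 ± 0.30 SE, adjusted p = 5.83e-05). The LMPP of mouse10384 was again the highest LMPP, and no ALP overlapped with the LMPPs. Tpm4, a tropomyosin of the actin cytoskeleton, was at 82.7, 11.7, 30.2, 18.03 and 19.9 CPM in the LMPPs and 407, 335, 304, 234 and 272 CPM in the ALPs (log2 fold change 3.65 ± 0.36 SE, adjusted p = 0.00142). Il18rap, the accessory chain of the interleukin 18 receptor, rose from 42.6 ± 11.8 to 172 ± 54.5 CPM (log2 fold change 2.07 ± 0.25 SE, adjusted p = 0.00445). In control mice the log2 fold changes were 4.74, adjusted p = 0.0107 for Cox6a2, 2.05, adjusted p = 0.195 for Tpm4 and 1.40, adjusted p = 0.144 for Il18rap.

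Among genes that fell, Adgrl4, an adhesion receptor known from endothelium, was abundant in LMPPs and was at 1440, 1189, 1918, 1366 and 1554 CPM in the LMPPs and 318, 228, 252, 208 and 308 CPM in the ALPs (log2 fold change -2.43 ± 0.20 SE, adjusted p = 0.000606). Serpina3g, a serpin from a family of similar copies that limits its counts, was at 425, 445, 454, 772 and 353 CPM in the LMPPs and 17.005, 15.04, 31.5, 55.6 and 11.7 CPM in the ALPs (log2 fold change -4.33 ± 0.26 SE, adjusted p = 7.25e-05). Rab38, a GTPase of lysosome-related organelles, was at 243, 167, 214, 193 and 192 CPM in the LMPPs and 21.3, 16.8, 16.9, 15.5 and 22.1 CPM in the ALPs (log2 fold change -3.37 ± 0.25 SE, adjusted p = 0.000277). Every ALP was below every LMPP for these 3 genes. Nfe2, a transcription factor of megakaryocytes, fell from 356 ± 117 to 48.03 ± 17.05 CPM (log2 fold change -2.82 ± 0.36 SE, adjusted p = 0.00677). The control log2 fold changes were -2.21, adjusted p = 0.0158 for Adgrl4, -3.22, adjusted p = 0.0562 for Serpina3g, -3.75, adjusted p = 0.0107 for Rab38 and -1.54, adjusted p = 0.0927 for Nfe2. The difference of the Nfe2 step between genotypes had an unadjusted p of 0.0182 and did not pass the adjusted threshold.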
